A study of Mus musculus with 4 samples.

Results

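Elastin, fibrillins, fibulins, a microfibril glycoprotein, an elastin-microfibril interface protein and lysyl oxidases make up the 10 genes described here (Eln, Fbn1, Fbn2, Fbln1, Fbln2, Fbln5, Emilin1, Mfap5, Lox and Loxl1). They were taken by gene symbol, with earlier results of these data known, and all 10 were among the 21993 genes listed for each library. RNA was sequenced from mouse uterine cells labelled as NK cells, sorted as negative for CD3 and positive for CD45 and NK1.1, at gd11.5 of gestation in females mated with B6 males. In the Ncr1Cre group (n = 2 libraries) the mice carried Cre recombinase driven from Ncr1, a gene of NK and related innate lymphoid cells, and in the control group (n = 2 libraries) they carried no Cre. Whether replicate libraries are from different animals is not stated in the labels, so the spread behind the p-values may be technical only.

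Elastic fibers give tissues recoil. Microfibrils built from fibrillin form a scaffold on which tropoelastin, the soluble product of Eln, is deposited with the help of fibulins, and the copper-dependent enzymes Lox and Loxl1 oxidize its lysines so that the chains become crosslinked. In the uterus these fibers are known to be remodelled during pregnancy and rebuilt after birth, and mice without Loxl1 develop pelvic organ prolapse after giving birth. The genes are typical products of fibroblasts and smooth muscle rather than of NK cells.

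The fibulin genes Fbln1 and Fbln2, which encode related matrix glycoproteins, moved in opposite directions in these libraries. On the log2 scale Fbn1 fell by the most, narrowly ahead of Fbln2. The promoters of Fbln1, Fbln2 and Fbn1 are therefore shown, from RefSeq on GRCm38.p6. Each runs from 250 bases before to 50 bases after the annotated start, read in the direction of the gene. Capitals mark GGGCGG, the core of the GC box bound by SP1-family factors, and CAGACA, part of SMAD-binding sequences, each searched on both strands. For Fbln1, with a pair of overlapping start sites in the table, the downstream one is given.
Fbln1 (chr15:85205758-85206057, + strand): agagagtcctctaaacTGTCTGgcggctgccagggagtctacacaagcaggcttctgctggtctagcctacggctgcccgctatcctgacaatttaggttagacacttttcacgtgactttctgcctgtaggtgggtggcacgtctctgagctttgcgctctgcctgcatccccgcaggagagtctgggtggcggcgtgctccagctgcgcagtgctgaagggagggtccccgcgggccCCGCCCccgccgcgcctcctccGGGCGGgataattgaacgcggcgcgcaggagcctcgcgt
Fbln2 (chr6:91212514-91212813, + strand): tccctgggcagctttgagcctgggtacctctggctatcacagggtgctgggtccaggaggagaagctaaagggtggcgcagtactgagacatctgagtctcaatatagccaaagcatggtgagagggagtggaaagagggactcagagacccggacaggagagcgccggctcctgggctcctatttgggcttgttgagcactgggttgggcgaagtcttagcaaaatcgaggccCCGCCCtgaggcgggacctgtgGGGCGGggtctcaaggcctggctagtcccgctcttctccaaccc
Fbn1 (chr2:125506389-125506688, - strand): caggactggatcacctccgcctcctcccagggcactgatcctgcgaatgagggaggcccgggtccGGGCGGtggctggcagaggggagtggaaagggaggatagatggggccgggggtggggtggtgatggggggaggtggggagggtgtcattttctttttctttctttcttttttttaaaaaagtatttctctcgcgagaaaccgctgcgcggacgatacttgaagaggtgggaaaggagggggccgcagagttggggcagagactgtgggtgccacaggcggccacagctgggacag
Counted with the start as position 1 and no position 0, the Fbln1 window held GGGCGG on the opposite strand from position -11 and on the gene's own strand from position 12. The Fbln2 window held the same pair at positions -16 and 7. Whether these motifs bear on the levels of either gene was not tested. Fbn1 held a single GGGCGG at position -185. CAGACA stood on the opposite strand at position -234 of the Fbln1 window, and neither Fbln2 nor Fbn1 held it. Promoters were examined for 5 of the 10 genes, 7 windows in all. Neither TATAAA, the TATA box, nor CATTCC, the core bound by TEAD factors, was in any of these windows. Promoters of the other genes, Lox and Fbn2 among them, were not examined, so nothing is said of their motifs. Of the 32851 promoter windows in the table, 35.7% held GGGCGG, 21.0% CAGACA, 13.6% TATAAA and 14.7% CATTCC. GC content was 64.0% in the Fbln1 window shown, 60.3% for Fbln2 and 60.3% for Fbn1, against a median of 52.7% over all windows. The upstream Fbln1 window, not shown, held no GGGCGG and had a GC content of 51.7%.

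Values are FPKM, that is fragments normalized to transcript length and to library size, so levels of different genes can be set side by side. Summed over all genes, FPKM came to 460108 and 468192 in Ncr1Cre and 384852 and 396770 in control, and the depth estimated from the low values was 20950000 to 38500000 fragments. The defining markers of the sorted cells were low. The 9 NK-cell markers summed to 35.1 to 36.1 FPKM in Ncr1Cre and 23.7 to 24.3 FPKM in control libraries, with Ncr1 itself at 0 and 0.15 FPKM in Ncr1Cre and 0.14 and 0.36 in control. The 11 stromal and fibroblast markers summed to 11110 to 11224 FPKM in Ncr1Cre and 22979 to 23612 FPKM in control. The libraries therefore go against their label as to which cells gave most of the RNA, and the genes below are described for libraries so labelled.

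Of the 10 genes, 9 reached a mean of 1 FPKM over the 4 libraries and were tested. In Ncr1Cre libraries 8 of them fell and Fbln1 rose (limma on log2(FPKM + 1), Benjamini-Hochberg adjusted p under 0.05 over 11762 genes). Over all genes tested 48.5% passed, 17.6% lower and 30.9% higher in Ncr1Cre, and 76.2% had no overlap of the genotypes, as had all 10 of these genes. The median log2 fold change, Ncr1Cre minus control, was -1.06 over the 9 genes and 0.11 over all genes tested. Of the 9 genes 5 were lower by at least 1 on the log2 scale, a size reached by 2.74% of all genes tested. Relative to the all-gene median the 8 falls lay between -1.81 and -0.93 and the rise of Fbln1 was 1.07. Of all calls 63.7% were higher in Ncr1Cre. After median rescaling and after quantile normalization, both of which put the all-gene median at -0.05, 46.7% and 46.3% of calls were higher. No gene of the 9 changed direction or lost its call under either scaling. In bulk RNA, fewer cells of a type and less RNA per cell cannot be told apart.

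**Figure D1:**
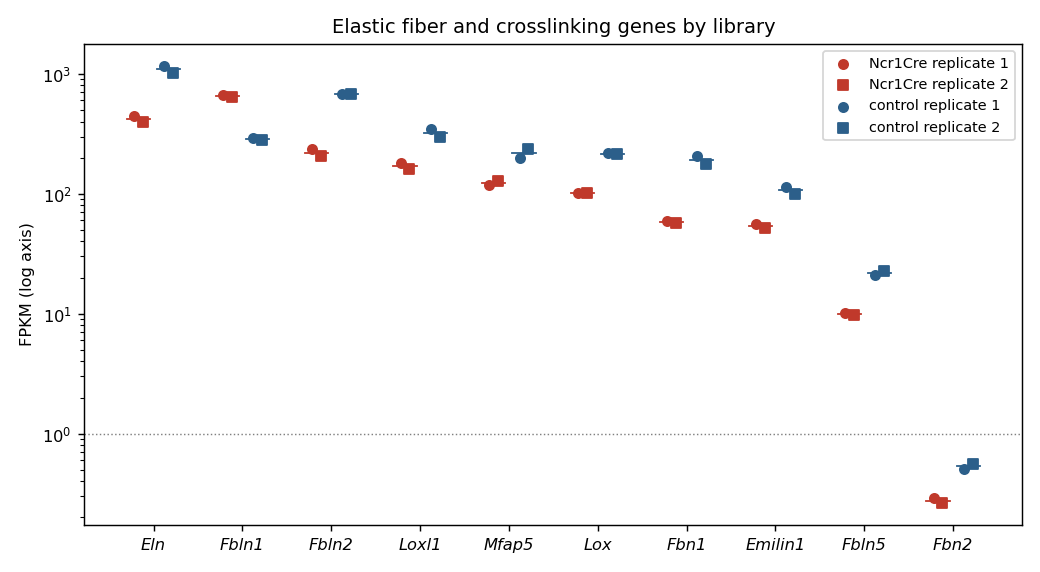
FPKM on a log axis for each of the 10 genes, ordered by their mean over the 4 libraries, with Ncr1Cre left (red) and control right (blue). Points are libraries (circle, replicate 1, square, replicate 2), short lines are means of 2 libraries, and the dotted line is 1 FPKM. Fbln1 is the gene whose Ncr1Cre points (637 and 660 FPKM) stand above the control points (279 and 291 FPKM), and Fbn2 lies below 1 FPKM in every library.

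Elastin was the highest of these genes in control libraries. Eln stood at 446 and 393 FPKM in the Ncr1Cre libraries, against 1165 and 1023 FPKM in the control libraries. Both Ncr1Cre libraries were below both control libraries, and the difference was larger than the spread within either genotype. The means were 420 ± 37.9 FPKM in Ncr1Cre and 1094 ± 100.03 FPKM in control (SD, n = 2 each), a log2 fold change of -1.38 (SE 0.10, 95% interval -1.64 to -1.12, limma adjusted p = 0.000585). Among all listed genes Eln ranked 165th and 184th by FPKM in Ncr1Cre libraries and 29th and 35th in control libraries.

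Fbn1, which encodes the main fibrillin of adult microfibrils, had the largest fall of the 10 genes in the fit with all 4 libraries. It stood at 59.6 and 56.9 FPKM in Ncr1Cre libraries, against 205 and 178 FPKM in control libraries, without overlap. Its means, 58.2 ± 1.92 FPKM in Ncr1Cre and 191 ± 18.5 FPKM in control (SD, n = 2 each), gave a log2 fold change of -1.70 (SE 0.088, interval -1.92 to -1.47, limma adjusted p = 0.000282), and 23 of the 11762 tested genes had a lower one. The interval overlapped that of Fbln2 (-1.84 to -1.41), and without control replicate 1 Fbln2 fell further (-1.63, against -1.60 for Fbn1). Fbn2, which encodes the fibrillin known mainly from fetal tissue, was the gene below the filter of a mean of 1 FPKM. It had 0.29 and 0.26 FPKM in Ncr1Cre libraries, against 0.51 and 0.56 FPKM in control libraries. Those values correspond to an estimated 83 and 66 fragments in Ncr1Cre and 217 and 129 in control. It was therefore not tested with the others. In a fit without the filter its log2 fold change was -0.26 (interval -0.40 to -0.12, limma adjusted p = 0.0236), a scale on which the added 1 FPKM understates changes of low genes. Fbn1 exceeded Fbn2 206-fold and 216-fold in FPKM in the Ncr1Cre libraries, and 401-fold and 321-fold in the control libraries.

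Mfap5, which encodes a small glycoprotein (MAGP-2) bound to fibrillin, had the smallest called change in the fit with all 4 libraries. It stood at 118 and 127 FPKM in Ncr1Cre libraries, against 199.5 and 235 FPKM in control libraries. The genotypes did not overlap, and the control libraries differed from each other more than the Ncr1Cre libraries did. The log2 fold change was -0.82 (SE 0.099, interval -1.07 to -0.56, limma adjusted p = 0.00270). That interval overlapped those of Emilin1 and Loxl1. Without control replicate 1 Emilin1 and Loxl1 fell by less than Mfap5 (-0.88 and -0.80, against -0.93). Emilin1, whose product sits where elastin meets the microfibrils and restrains the processing of TGF-beta precursors, stood at 55.9 and 52.2 FPKM in Ncr1Cre libraries, against 114 and 100.4 FPKM in control libraries. Its log2 fold change was -0.97 (SE 0.089, interval -1.20 to -0.74, limma adjusted p = 0.00113).

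Among the fibulins, Fbln1 rose while Fbln2 and Fbln5 fell. Fbln1 encodes a glycoprotein of elastic fiber cores and basement membranes. It stood at 660 and 637 FPKM in Ncr1Cre libraries, against 291 and 279 FPKM in control libraries, and the replicates of each genotype lay close together. The means were 648 ± 16.5 FPKM in Ncr1Cre and 285 ± 8.82 FPKM in control (SD, n = 2 each), 2.27-fold higher in Ncr1Cre, with a log2 fold change of 1.18 (SE 0.062, interval 1.02 to 1.34, limma adjusted p = 0.000284). Of all tested genes 10879, or 92.5%, had a lower log2 fold change than Fbln1.

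Fbln2, which encodes a fibulin of basement membranes and of elastic fiber surfaces, stood at 234 and 206 FPKM in Ncr1Cre libraries, against 676 and 683 FPKM in control libraries. The log2 fold change was -1.63 (SE 0.082, interval -1.84 to -1.41, limma adjusted p = 0.000268). The order of the pair was therefore opposite in the genotypes: the ratio of Fbln1 to Fbln2 FPKM was 2.81 and 3.10 in Ncr1Cre libraries, against 0.43 and 0.41 in control libraries. Fbln5, whose product tethers tropoelastin to cells and to Loxl1 and without which mice form defective elastic fibers, was the least abundant tested gene. It stood at 10.1 and 9.83 FPKM in Ncr1Cre libraries, against 21.0 and 22.7 FPKM in control libraries, a log2 fold change of -1.06 (SE 0.082, interval -1.27 to -0.85, limma adjusted p = 0.000708).

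Both lysyl oxidase genes fell. Lox stood at 101 and 100.6 FPKM in Ncr1Cre libraries, against 218 and 214 FPKM in control libraries. The replicates of either genotype were nearly equal and the genotypes did not overlap, and the log2 fold change was -1.09 (SE 0.059, interval -1.25 to -0.94, limma adjusted p = 0.000295). Loxl1, which encodes the family member tied to elastin, stood at 179 and 160 FPKM in Ncr1Cre libraries, against 344 and 296 FPKM in control libraries. Its log2 fold change was -0.91 (SE 0.10, interval -1.18 to -0.65, limma adjusted p = 0.00210). Elastin fell further than the enzymes: the FPKM of Eln over the sum of Lox and Loxl1 was 1.60 and 1.51 in Ncr1Cre libraries, against 2.07 and 2.01 in control libraries. With 2 libraries a genotype an exact permutation test of such a ratio cannot go below p = 0.333, so these ratios are given as values only.

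**Figure D2:**
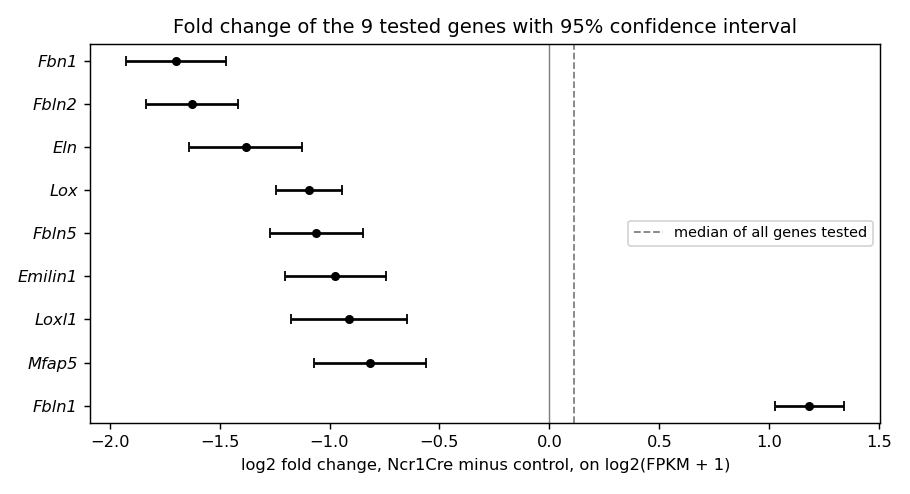
Log2 fold change, Ncr1Cre minus control on log2(FPKM + 1), of the 9 tested genes, with limma 95% confidence intervals as bars. The solid line is 0 and the dashed line the median of all genes tested (0.11). The intervals of 8 genes lie below 0, from Fbn1 (-1.70) to Mfap5 (-0.82), and that of Fbln1 (1.18) lies above it.

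The order of levels changed with these differences. In Ncr1Cre libraries Fbln1 came first and Eln second, followed by Fbln2, Loxl1, Mfap5, Lox, Fbn1, Emilin1, Fbln5 and Fbn2. The closest neighbours there were Fbn1 and Emilin1, whose means of 58.2 ± 1.92 and 54.1 ± 2.60 FPKM differed by less than the sum of their SDs. In control libraries the order ran Eln, Fbln2, Loxl1, Fbln1, Mfap5, Lox, Fbn1, Emilin1, Fbln5 and Fbn2. Loxl1 (320 ± 34.1 FPKM) and Fbln1 (285 ± 8.82 FPKM) were not separated beyond the sum of their SDs. Mfap5 (217 ± 24.9 FPKM) was not separated in this way from Lox (216 ± 3.02 FPKM) or from Fbn1 (191 ± 18.5 FPKM), while Lox and Fbn1 did not overlap. Summed over the 10 genes the level was 1865 and 1742 FPKM in Ncr1Cre libraries, against 3235 and 3032 FPKM in control libraries. Fbln1 made up 35.4% and 36.6% of that sum in Ncr1Cre libraries, against 9.01% and 9.20% in control libraries. Eln made up 23.9% and 22.6% in Ncr1Cre, against 36.0% and 33.8% in control.

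Markers of fibroblasts, smooth muscle and mesothelium, cell types that make matrix, were lower in the same Ncr1Cre libraries. All 11 stromal and fibroblast markers fell, and their sum was 2.09-fold lower in Ncr1Cre than in control. All 7 tested of 9 smooth muscle markers fell, with sums of 212 to 218 FPKM in Ncr1Cre and 587 to 598 FPKM in control. All 4 mesothelial markers fell, with sums of 75.5 to 79.2 FPKM in Ncr1Cre and 227 to 240 FPKM in control. Leaving out any 1 library left 10 or 11 stromal, 6 smooth muscle and 3 or 4 mesothelial markers called lower. Pericyte markers were sparse, at 4.92 to 6.68 FPKM in Ncr1Cre and 7.45 to 8.42 FPKM in control, with 1 of 4 tested higher and 1 lower. These counts were 0 higher and 2 lower without Ncr1Cre replicate 1 and after quantile normalization, 0 of either without control replicate 1, and 0 higher and 1 lower without control replicate 2. After median rescaling 1 was higher and 2 were lower. None of the stromal, smooth muscle, mesothelial or pericyte markers was listed at 0 in any library. Opposite to these, all 7 epithelial markers rose (sums of 1897 to 1910 FPKM in Ncr1Cre and 465 to 486 FPKM in control), as did all 4 macrophage and all 3 leukocyte markers. Endothelial markers summed to 28.1 to 28.4 FPKM in Ncr1Cre and 15.4 to 15.7 FPKM in control, with 2 of 5 tested higher and 1 lower, and 2 and 0 without Ncr1Cre replicate 1, Ncr1Cre replicate 2 or control replicate 1. Trophoblast markers summed to 457 to 523 FPKM in Ncr1Cre and 144 to 168 FPKM in control, nearly all from Tpbpa, with Gcm1 listed at 0 in every library. The part of any of these cell types in the differences of the elastic fiber genes was not tested.

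Set against the stromal sum of the same library, the genes differed in direction and in overlap. Fbln1 was 5.94% and 5.67% of that sum in Ncr1Cre libraries, against 1.27% and 1.18% in control libraries, 4.74-fold higher relative to these markers. Fbn1 was 0.54% and 0.51% of it in Ncr1Cre, against 0.89% and 0.76% in control, and Fbln2 was 2.11% and 1.83% in Ncr1Cre, against 2.94% and 2.89% in control. Eln was 4.02% and 3.50% in Ncr1Cre, against 5.07% and 4.33% in control. Fbn1, Fbln2 and Eln were thus lower in Ncr1Cre also relative to the stromal markers, with log2 differences of -0.65, -0.57 and -0.32 and no overlap between the genotypes. Lox (0.91% and 0.90% in Ncr1Cre, 0.95% and 0.91% in control), Loxl1 (1.61% and 1.42% in Ncr1Cre, 1.50% and 1.25% in control) and Emilin1 (0.50% and 0.47% in Ncr1Cre, 0.50% and 0.43% in control) overlapped between the genotypes on this measure, as did Fbn2. Fbln5 (0.091% and 0.088% in Ncr1Cre, 0.091% and 0.096% in control) lay slightly lower in Ncr1Cre, with a log2 difference of -0.07. Mfap5 (1.06% and 1.13% in Ncr1Cre, 0.87% and 0.99% in control) lay higher there, with a log2 difference of 0.24. Neither gene overlapped between the genotypes. The stromal sum is itself dominated by collagen genes, and with Col1a1 alone as the denominator each of the 10 log2 differences shifted by -0.20. Emilin1, Loxl1 and Fbn2 then had a lower mean ratio in Ncr1Cre, and the genotypes overlapped for Emilin1, Loxl1 and Mfap5. With the smooth muscle sum as the denominator Eln overlapped between the genotypes, at 205% and 185% in Ncr1Cre and 195% and 174% in control. Among the denominators used its lower ratio thus held for the stromal ones only. Fbn1 and Fbln2 stayed lower in Ncr1Cre relative to the smooth muscle sum (log2 differences of -0.25 and -0.17), and the other 7 genes were higher there, Fbln1 by 2.65 on the log2 scale. In Ncr1Cre that sum was mostly Des, at 144 and 143 of 218 and 212 FPKM. Des fell 1.74-fold and Smtn 1.21-fold, while the other tested smooth muscle markers fell between 5.98-fold and 13.6-fold. Ratios to those markers alone were not computed.

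**Figure D3:**
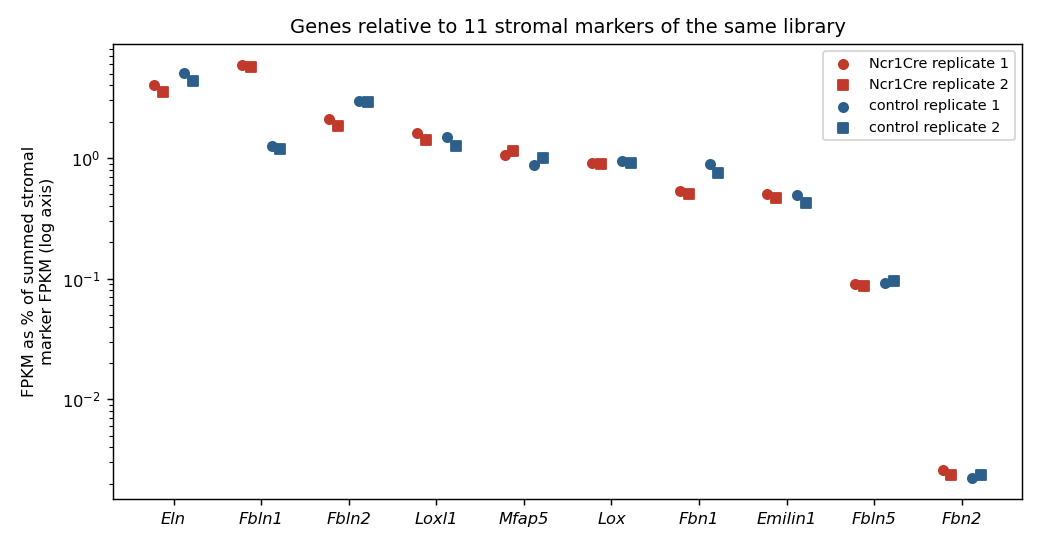
FPKM of each gene as a percentage of the summed FPKM of 11 stromal markers in the same library, on a log axis, with Ncr1Cre left (red) and control right (blue) and 1 point per library. Fbln1 stands apart at 5.67% and 5.94% in Ncr1Cre, against 1.18% and 1.27% in control, while Lox, Loxl1, Emilin1 and Fbn2 overlap between the genotypes.

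Other genes of elastic fibers and their surroundings more often fell than rose. Of 21 elastic fiber associated genes 17 were tested, of which 10 fell, 2 rose and 5 did not pass (median log2 fold change -0.38, against 0.11 over all genes). Over all genes tested 17.6% fell and 30.9% rose. Without Ncr1Cre replicate 1 or control replicate 1, and after quantile normalization, 1 gene of the group rose. Emilin2, a paralog of Emilin1, averaged 50.6 ± 0.66 FPKM in Ncr1Cre and 133 ± 1.79 FPKM in control (SD, n = 2 each), a log2 fold change of -1.38. Mfap4, a microfibril-associated glycoprotein, averaged 223 ± 4.05 FPKM in Ncr1Cre and 462 ± 8.07 FPKM in control, and the fibulin gene Efemp1 39.4 ± 2.13 FPKM in Ncr1Cre and 85.3 ± 3.18 FPKM in control. Efemp2, which encodes fibulin-4, a fibulin that helps Lox to crosslink elastin, averaged 34.5 ± 2.07 FPKM in Ncr1Cre and 55.9 ± 2.45 FPKM in control, a smaller log2 fold change of -0.68. Versican (Vcan, -1.12) and fibronectin (Fn1, -1.24), matrix molecules that bind fibulins or fibrillin, fell as well. The genes that rose, named after their values were seen, were the fibulin Fbln7 (18.4 FPKM in Ncr1Cre and 13.0 FPKM in control on average) and the EMILIN-family gene Mmrn1 (3.09 FPKM in Ncr1Cre and 1.87 FPKM in control). Adjusted p-values of the genes named in this group were between 0.000220 and 0.0200 (limma). That of Mmrn1 was 0.0628 after quantile normalization, 0.0619 without Ncr1Cre replicate 1 and 0.0942 without control replicate 1.

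Of 13 further genes of lysyl oxidation and its partners 11 were tested, of which 8 fell, 1 rose and 2 did not pass (median log2 fold change -0.84), where 17.6% of all genes tested fell and 30.9% rose. Bmp1, whose protease activates the Lox precursor, averaged 86.8 ± 7.63 FPKM in Ncr1Cre and 164 ± 2.53 FPKM in control. Pcolce, an enhancer of that protease, averaged 436 ± 1.54 FPKM in Ncr1Cre and 780.1 ± 41.9 FPKM in control. Postn, which encodes periostin, a partner of Bmp1 in Lox activation, had the largest fall of the group, with 473 ± 31.0 FPKM in Ncr1Cre and 1663 ± 112 FPKM in control (log2 fold change -1.81, limma adjusted p = 0.000225). The collagen-binding genes Fmod (-1.12) and Tnxb (-1.03) fell too. Atox1, the copper chaperone that hands copper to the secretory pathway, was the gene that rose, with 113 ± 2.91 FPKM in Ncr1Cre and 64.0 ± 3.28 FPKM in control (0.82, limma adjusted p = 0.000955). Among paralogs of the members, named after their values were seen, Loxl2 stood at 26.4 and 42.6 FPKM in Ncr1Cre libraries, against 86.5 and 108 FPKM in control libraries (-1.50, limma adjusted p = 0.00649). Loxl3 stood at 8.44 and 8.31 FPKM in Ncr1Cre, against 15.9 and 13.9 FPKM in control (-0.76, limma adjusted p = 0.00303). Loxl4 stood at 6.40 and 5.69 FPKM in Ncr1Cre, against 5.20 and 3.45 FPKM in control, and did not pass (limma adjusted p = 0.113, or 0.0302 without control replicate 1).

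Fibrillin microfibrils also hold latent TGF-beta. Of 12 genes of that group, all of them listed, 10 were tested, of which 4 fell, 3 rose and 3 did not pass. The share that rose was near the 30.9% of all genes tested that rose, and 17.6% of all genes fell. Without Ncr1Cre replicate 1, Ncr1Cre replicate 2 or control replicate 2, 1 gene of the group rose and 4 fell, and without control replicate 1, 2 rose and 4 fell. Ltbp4, which encodes a latent TGF-beta binding protein needed for elastic fiber assembly, averaged 314 ± 37.5 FPKM in Ncr1Cre and 779 ± 79.5 FPKM in control (-1.31, limma adjusted p = 0.00102). Ltbp3 (-0.98), Ltbp1 (-0.62) and Lrrc32 (-0.76), whose product anchors latent TGF-beta on cells, fell as well. Tgfb2, the gene of a TGF-beta ligand, averaged 465 ± 26.5 FPKM in Ncr1Cre and 96.5 ± 1.87 FPKM in control (2.26, limma adjusted p = 0.000126). Itgb8, an integrin subunit that helps to release TGF-beta, averaged 2.05 ± 0.047 FPKM in Ncr1Cre and 1.17 ± 0.24 FPKM in control (0.50, limma adjusted p = 0.0271). Its call was lost after median rescaling (adjusted p = 0.0564), after quantile normalization (adjusted p = 0.104), and without Ncr1Cre replicate 1 (0.0697), Ncr1Cre replicate 2 (0.0574) or control replicate 2 (0.114). After either scaling 1 gene of the group rose and 5 fell.

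Of 13 tested genes of elastin-degrading enzymes and their inhibitors, 5 rose, 5 fell and 3 did not pass. The share that rose was near the 30.9% of all genes tested that rose, and 17.6% of all genes fell. The metalloproteinase genes Mmp2 (155 ± 3.82 FPKM in Ncr1Cre and 351 ± 7.92 FPKM in control) and Mmp14 (173 ± 6.38 FPKM in Ncr1Cre and 474 ± 26.2 FPKM in control) fell, as did the inhibitor gene Timp2 (197 ± 22.4 FPKM in Ncr1Cre and 473 ± 7.33 FPKM in control). Mmp7, the epithelial metalloproteinase matrilysin, averaged 143 ± 9.60 FPKM in Ncr1Cre and 29.3 ± 2.03 FPKM in control. Slpi, an epithelial inhibitor of neutrophil elastase, averaged 92.8 ± 1.42 FPKM in Ncr1Cre and 41.3 ± 0.88 FPKM in control. Prtn3, a neutrophil protease that cleaves elastin, averaged 6.28 ± 1.23 FPKM in Ncr1Cre and 0.58 ± 0.13 FPKM in control. Elane, the neutrophil elastase gene, named after its values were seen, was not tested. It was listed at 0 and 0 FPKM in Ncr1Cre libraries, against 0 and 0.13 FPKM in control libraries. The 3 higher genes named here stood in the libraries whose epithelial and leukocyte markers were higher, and the part of those cells was not tested. Limma adjusted p-values of the 6 tested genes named here were between 0.000178 and 0.000610.

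**Figure D4:**
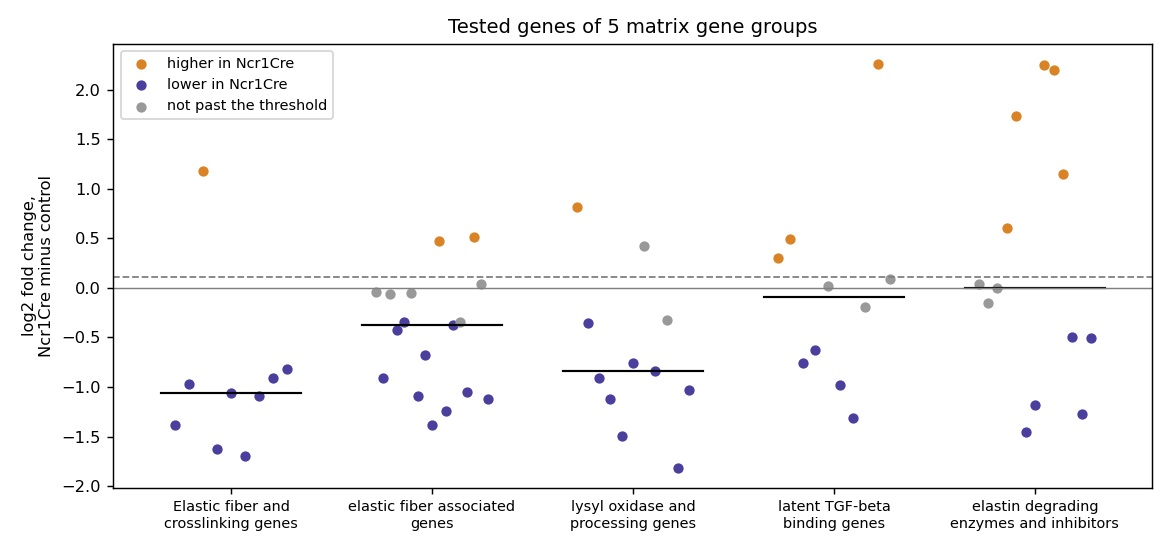
Log2 fold change, Ncr1Cre minus control, of every tested gene in 5 groups, with orange for genes higher in Ncr1Cre, purple for lower and grey for those not past the threshold. Black lines are group medians (-1.06, -0.38, -0.84, -0.09 and 0.00090 from left to right), the grey line is 0 and the dashed line the median of all genes tested (0.11).

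By root mean square difference of centred log2(FPKM + 1) values over the 4 libraries, the genes most like Eln were Mfhas1 (0.024), Ngfr (0.041), Ltbp4 (0.042), Nid1 (0.043) and Tgfbr2 (0.048). Ltbp4 stood at 340 and 287 FPKM in Ncr1Cre libraries, against 835 and 722 FPKM in control libraries. Of the other members Fbln2 came nearest (0.14, 114th among tested genes), followed by Fbn1 (0.16, 169th) and Lox (0.17, 175th), and Fbln1 was far away (1.28). With 4 libraries this likeness is mostly the size of the difference between genotypes.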

How the data were processed

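RNA was sequenced from 4 libraries, 2 of Ncr1Cre and 2 of control mice, grouped and numbered by the labels; the rest of the genotype is not reported here. The authors made FPKM values per gene with Cufflinks on mm9, per the submitters' processing notes. Which aligner and annotation were used, whether strand was kept and how reads with several matches were treated is not given in the sources used here. Genes were taken by symbol, after 27 symbols that a spreadsheet had turned into dates were replaced through their identifiers.

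FPKM are not counts, so limma 3.58.1 in R 4.3.3 was run on log2(FPKM + 1) with an intensity trend for the 11762 genes whose 4-library mean reached 1 FPKM, two-sided, adjusted by Benjamini-Hochberg and called under 0.05, after a test on simulated data. Fold changes on this scale understate changes of low genes. Depth was estimated from genes with 1 annotated transcript as the total that made most low values whole fragments within 0.02; 33.5% to 36.2% came out whole, too few for a count test. At these depths 1 fragment on 1 kb was worth 0.0260 to 0.0477 FPKM. Exact zeros can be failed estimates: Gapdh, used by every cell, ranged between 0 and 13.3 FPKM.

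The named genes are the 10 members, up to 6 genes of smallest p in each of 4 pathway lists and the 5 nearest to Eln; others are said to be named after their values were seen. The members and lists were chosen with earlier results of these data known. Eln, Fbn1, Fbn2 and Lox each overlap a gene on the opposite strand in the GRCm38 annotation used for names. Without stated strandedness reads of the partners cannot be told apart. The partner of Fbn1, Gm9913, averaged 0.54 FPKM over the 4 libraries, and the other partners were not listed by name. Protein sequences were not used here. Alternatives were another pseudocount, other filters, scaling, no trend, a looser threshold, the replicate number as a block and leaving out each library.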

Additional observations from a re-analysis of the deposited data

How the results depend on the processing

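Under the alternatives run, each of the 9 tested members kept its direction and its call, with the highest adjusted p at 0.00948, for Mfap5. Log2 fold changes ranged from -1.88 to -1.60 for Fbn1, from -1.81 to -1.53 for Fbln2, from -1.64 to -1.29 for Eln and from 0.93 to 1.21 for Fbln1. The count of genes called, 5709, lay between 4037 (mean of at least 5 FPKM) and 6759 (adjusted p under 0.1), and between 4092 and 5034 without 1 library, where a lone library is assumed to vary like the other genotype. Total calls within the 4 pathway groups stayed within 1.5 times, but the counts of higher genes did not. Latent TGF-beta genes called higher, 3 in the reported fit, were 1 after either scaling, 2 with a mean of at least 5 FPKM, 5 with no filter and 1 or 2 without 1 library. Elastic fiber associated genes called higher, 2 in the reported fit, were 1 after quantile normalization and with a mean of at least 5 FPKM, and 1 or 2 without 1 library. Degrading enzymes and inhibitors called higher, 5 in the reported fit, were 3 with a mean of at least 5 FPKM, and lysyl oxidation genes called higher, 1 in the reported fit, were 2 without control replicate 1. Counts of lower genes stayed within 1.5 times in each of these groups. The replicate numbers share only a number (correlation of replicate differences between the genotypes 0.16 over genes). With the replicate block 6004 genes and 9 members were called. The counts of called markers under these settings were added after seeing the data. With Col1a1 in place of the stromal sum, the log2 ratio differences of all 10 genes shifted by the same -0.20. That shift is set by the denominators alone, and it was more than 1 SD of each gene's ratio. The files give no counts, and 2 libraries per genotype limit the precision.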
